A study of Homo sapiens with 30 samples.

Results

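The metallothioneins and their metal-response partners are 8 genes here: the metallothioneins MT1E, MT1F, MT1G, MT1M, MT1X and MT2A, the metal-responsive transcription factor MTF1, and the zinc exporter SLC30A1. They were chosen by gene symbol, as metallothionein and zinc-response genes, with earlier results of these data known, and all 8 were found among the 58278 genes counted in every library. The 6 metallothioneins lie together on chromosome 16, between MT2A (ENSG00000125148.6, chr16:56608199-56609497, plus strand) and MT1X (ENSG00000187193.8, chr16:56682424-56684196, plus strand) on GRCh38. MTF1 (ENSG00000188786.9, chr1:37809567-37859620) and SLC30A1 (ENSG00000170385.9, chr1:211571568-211578742) are both on the minus strand of chromosome 1. All 8 are protein-coding genes in GENCODE 29, and counts refer to their exons.

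Metallothioneins are small cytosolic proteins made largely of cysteine, whose thiol groups hold zinc, copper and cadmium and also react with oxidants. Free zinc in the cell binds MTF1, which then enters the nucleus, binds metal response elements in promoters, and turns on the metallothioneins and SLC30A1, the exporter that pumps zinc out across the plasma membrane. Metallothionein genes also respond to glucocorticoids and oxidative stress, and in cultured human cells MT2A and MT1X are the usual expressed forms.

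The study used HEK293, a human embryonic kidney line, whose genotype is labelled wild type. Cells were transfected with 1 plasmid carrying a fusion of a mutant EGFP and mCherry that reports mistranslation, either alone or together with a missense-correcting tRNA (mc-tRNA) engineered to put the original amino acid at the mutant codon. The 5 pairs were EGFP(R65) with Ser-tRNA_Arg(CCG), EGFP(R96Q) with Arg-tRNA_Gln(CUG), EGFP(R96C) with Arg-tRNA_Cys(GCA), EGFP(R96H) with Arg-tRNA_His(GUG) and EGFP(R96W) with Arg-tRNA_Trp(CCA). In each mc-tRNA name the first part is the amino acid carried and the bracket gives the anticodon. Every group, controls included, had been through Lipofectamine transfection and was sorted for mCherry 48 h later, so each result holds for transfected cells of 1 line expressing a mutant reporter. Each of the 10 groups had 3 independent replicates, and no untransfected or metal-treated group was analysed here.

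Total gene counts ran from 39017548 to 55446962 per library. All 7 HEK293 markers examined had counts in all 10 groups. The 13 markers of other cell types summed to between 17 and 28.6 CPM (counts scaled to library size) in 9 groups and to 51.2 to 51.7 CPM in EGFP(R96C)+Arg-tRNA_Cys(GCA). Synthetic ERCC spike-in rows held 0 counts in the 6 EGFP(R65) libraries and 10 to 106 in the 24 others, so the EGFP(R65) pair stands apart in this measure, and its mc-tRNA effect is taken within the pair.

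The promoters are shown first because MTF1 acts on its targets through a short element, and the 4 promoters at hand differ in how many they hold. The metal response element core was searched as TGCACNC and TGCGCNC on both strands, from 250 bases before to 50 bases after the RefSeq transcription start (GRCh38.p14). Capitals mark matches on either strand, and each line reads 5′ to 3′ along the gene's own strand. The windows are chr16:56608334-56608633 (plus) for MT2A, chr16:56682220-56682519 (plus) for MT1X, chr1:211579112-211579411 (minus) for SLC30A1 and chr1:37859543-37859842 (minus) for MTF1. MT1E, MT1F, MT1G and MT1M are not shown.
MT2A: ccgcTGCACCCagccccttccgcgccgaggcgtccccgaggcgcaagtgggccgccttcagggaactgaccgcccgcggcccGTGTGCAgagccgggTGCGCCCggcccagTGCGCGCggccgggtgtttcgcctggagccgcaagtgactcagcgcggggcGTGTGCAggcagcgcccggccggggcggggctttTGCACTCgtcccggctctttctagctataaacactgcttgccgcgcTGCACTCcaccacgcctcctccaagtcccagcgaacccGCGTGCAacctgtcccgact
MT1X: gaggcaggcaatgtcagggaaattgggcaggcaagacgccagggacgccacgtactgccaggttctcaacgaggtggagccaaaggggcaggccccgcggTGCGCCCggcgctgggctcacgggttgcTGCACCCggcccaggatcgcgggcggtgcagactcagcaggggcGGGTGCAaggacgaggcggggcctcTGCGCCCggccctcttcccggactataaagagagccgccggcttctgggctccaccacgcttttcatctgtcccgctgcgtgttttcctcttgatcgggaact
SLC30A1: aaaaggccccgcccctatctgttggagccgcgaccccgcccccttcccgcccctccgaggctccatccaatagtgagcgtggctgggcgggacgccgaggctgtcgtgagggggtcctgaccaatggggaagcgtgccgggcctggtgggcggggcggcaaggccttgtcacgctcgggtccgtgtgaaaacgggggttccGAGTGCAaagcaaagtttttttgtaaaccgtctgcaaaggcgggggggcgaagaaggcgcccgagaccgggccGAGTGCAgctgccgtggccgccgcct
MTF1: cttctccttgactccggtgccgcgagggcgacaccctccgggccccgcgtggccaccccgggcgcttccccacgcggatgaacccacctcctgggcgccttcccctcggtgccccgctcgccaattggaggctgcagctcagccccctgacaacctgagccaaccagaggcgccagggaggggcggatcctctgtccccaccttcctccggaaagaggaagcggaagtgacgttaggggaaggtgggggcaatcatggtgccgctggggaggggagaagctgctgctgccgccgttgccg

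The MT2A window held 8 matches, a number reached by 0.0199% of 35116 promoters of the same length. MT1X had 4, reached by 0.601% of promoters, SLC30A1 had 2, reached by 8.6%, and MTF1 had 0, where 29.6% of promoters hold at least 1. A TATA box (TATAAA) began 29 bases before the MT2A start and 30 bases before the MT1X start, and 11.5% of promoters hold one on either strand. The antioxidant response element core TGACNNNGC matched once in each of the MT2A, MT1X and SLC30A1 windows and is found in 13.3% of promoters. Neither the paired heat shock unit (GAANNTTC or TTCNNGAA, in 13.5% of promoters) nor the glucocorticoid receptor element (in 0.39%) matched in any of the 4 windows. These are matches of letters and not measured binding sites.

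**Figure D1:**
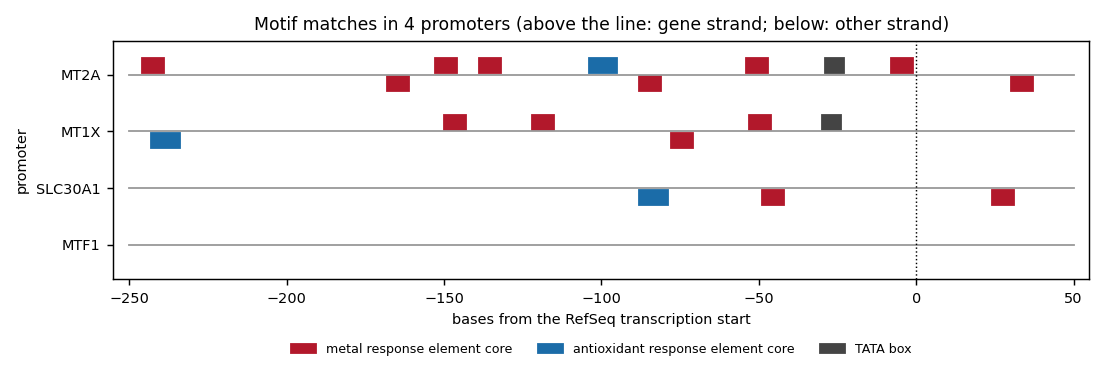
Motif matches in the promoters of MT2A, MT1X, SLC30A1 and MTF1, with the distance in bases from the RefSeq transcription start on the horizontal axis and 1 line per promoter. Boxes above a line are on the gene's strand and boxes below it on the other strand; MT2A carries 8 metal response element cores (red), MT1X 4, SLC30A1 2 and MTF1 0.

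The coding sequences are shown because they are rich in the codon that pairs with 1 of the 5 mc-tRNAs. The anticodon GCA of Arg-tRNA_Cys(GCA) pairs base for base with the cysteine codon TGC. Whether it also reads TGT, the other cysteine codon, was not examined, so TGC counts do not measure its reach. In the lines below, from GENCODE 29 transcripts on GRCh38, the in-frame TGC codons are in capitals.
MT2A: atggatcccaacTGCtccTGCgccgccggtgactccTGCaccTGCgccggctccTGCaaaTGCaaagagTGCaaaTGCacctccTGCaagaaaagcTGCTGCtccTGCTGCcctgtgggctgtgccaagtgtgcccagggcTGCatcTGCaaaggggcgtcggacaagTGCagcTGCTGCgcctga
MT1X: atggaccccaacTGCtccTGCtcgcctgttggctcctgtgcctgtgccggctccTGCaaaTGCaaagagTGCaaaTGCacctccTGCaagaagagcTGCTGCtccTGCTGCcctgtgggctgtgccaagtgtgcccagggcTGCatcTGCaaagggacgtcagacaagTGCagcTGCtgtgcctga
Each of the 6 metallothioneins encodes 61 amino acids, of which 20 (32.8%) are cysteine. Only 0.185% of 19473 genes reach that share, and the median gene has 2.03%. TGC made up 18 of the 20 cysteine codons in MT2A, 17 in MT1F and MT1G, 16 in MT1E and MT1M, and 15 in MT1X. MTF1 had 21 cysteine codons in 753 and SLC30A1 18 in 507. None of the 6 metallothionein sequences holds CGG or TGG, the codons that pair with the anticodons CCG and CCA. MT1E, MT1F, MT1G, MT1X and MT2A each hold 1 CAG, which pairs with CUG, and MT1M holds 1 CAC, which pairs with GUG. RNA levels carry no information on which amino acid was put into these proteins.

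The 6 coding sequences were 88.7% to 95.2% identical over 186 bases, so reads from 1 gene could be lost to another. At 50 bases, 45.1% of the windows along the MT1X transcript also occur in another gene's transcript, against 20.2% for MT1G, 7.05% for MT1M, 5.34% for MT1E, 4.88% for MT2A and 3.59% for MT1F. At 100 bases the share was 19.1% for MT1X, all of it with 1 overlapping transcript on the same strand that had 0 counts, and 0 for the other metallothioneins. Only uniquely mapped read pairs were counted, so a read from a window shared with a gene elsewhere may be missing from the level of any of these genes. The overlapping transcript lies at the MT1X locus, so unique mapping alone does not remove reads that MT1X shares with it. It is also among the genes behind the 45.1% at 50 bases, which therefore does not measure likeness to other metallothioneins alone. How reads over both genes were assigned was not examined.

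Of the 8 genes, 5 were expressed highly enough to be tested. MT1E had 0 counts in all 30 libraries, which allows at most 3 counts, or 0.0541 to 0.0769 CPM, in a library. MT1G had 2 counts over all 30 libraries and MT1M had 18, with at most 3 in any library. These 3 genes were at or under the detection limit in every group and are given no fold change. Beside them, 13 other metallothionein genes and pseudogenes were examined and 0 were tested. The most counted of these were the pseudogene MT1P1, with 99 counts over all libraries, and MT4, with 30.

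MT2A was the leading metallothionein. Over all 30 libraries the mean level per kilobase of exon was 8.84 CPM per kb for SLC30A1, 5.76 for MTF1, 4.07 for MT2A, 1.05 for MT1X and 0.292 for MT1F. Summed over 9 protein-coding MT1 and MT2A genes, MT2A took a mean of 63.4% to 74% of metallothionein CPM in the 10 groups. MT1X took 15.2% to 26.5% and MT1F 5.46% to 13.4%.

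Across the 10 groups, MT2A spanned from 1.34 ± 0.41 CPM (SD, n = 3 here and in all group values) in EGFP(R65)+Ser-tRNA_Arg(CCG) to 9.35 ± 2.46 CPM in EGFP(R96C). The order from the lowest was EGFP(R65)+Ser-tRNA_Arg(CCG), EGFP(R65), EGFP(R96C)+Arg-tRNA_Cys(GCA), EGFP(R96W)+Arg-tRNA_Trp(CCA), EGFP(R96W), EGFP(R96H), EGFP(R96Q)+Arg-tRNA_Gln(CUG), EGFP(R96Q), EGFP(R96H)+Arg-tRNA_His(GUG) and EGFP(R96C). The ranges of neighbours overlapped in 6 of 9 steps. They were apart between EGFP(R65) and EGFP(R96C)+Arg-tRNA_Cys(GCA), between that group and EGFP(R96W)+Arg-tRNA_Trp(CCA), and between EGFP(R96Q) and EGFP(R96H)+Arg-tRNA_His(GUG). The step between the EGFP(R65) pair and the rest also separates the libraries with and without spike-in counts, and the part that this plays was not tested.

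MT1X had the same group at the bottom, with 0.271 ± 0.082 CPM, and the same group at the top, with 3.55 ± 0.83 CPM. MT1X ranges of neighbouring groups overlapped in 5 of 9 steps. For MTF1 the order was different: EGFP(R96H) was lowest at 25.2 ± 1.3 CPM and EGFP(R65)+Ser-tRNA_Arg(CCG) was highest at 89.8 ± 2.6 CPM. Ranges overlapped in 4 of 9 steps for MTF1, all of them among the EGFP(R96) reporters alone and the Gln and His mc-tRNA groups. SLC30A1 ran from 28.7 ± 3.9 CPM in EGFP(R96C)+Arg-tRNA_Cys(GCA) to 82.1 ± 5.5 CPM in EGFP(R65)+Ser-tRNA_Arg(CCG), with overlap in 6 of 9 steps. MT1F ranges overlapped in 8 of 9 steps, and the only gap lay above EGFP(R65)+Ser-tRNA_Arg(CCG), its lowest group at 0.135 ± 0.059 CPM.

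**Figure D2:**
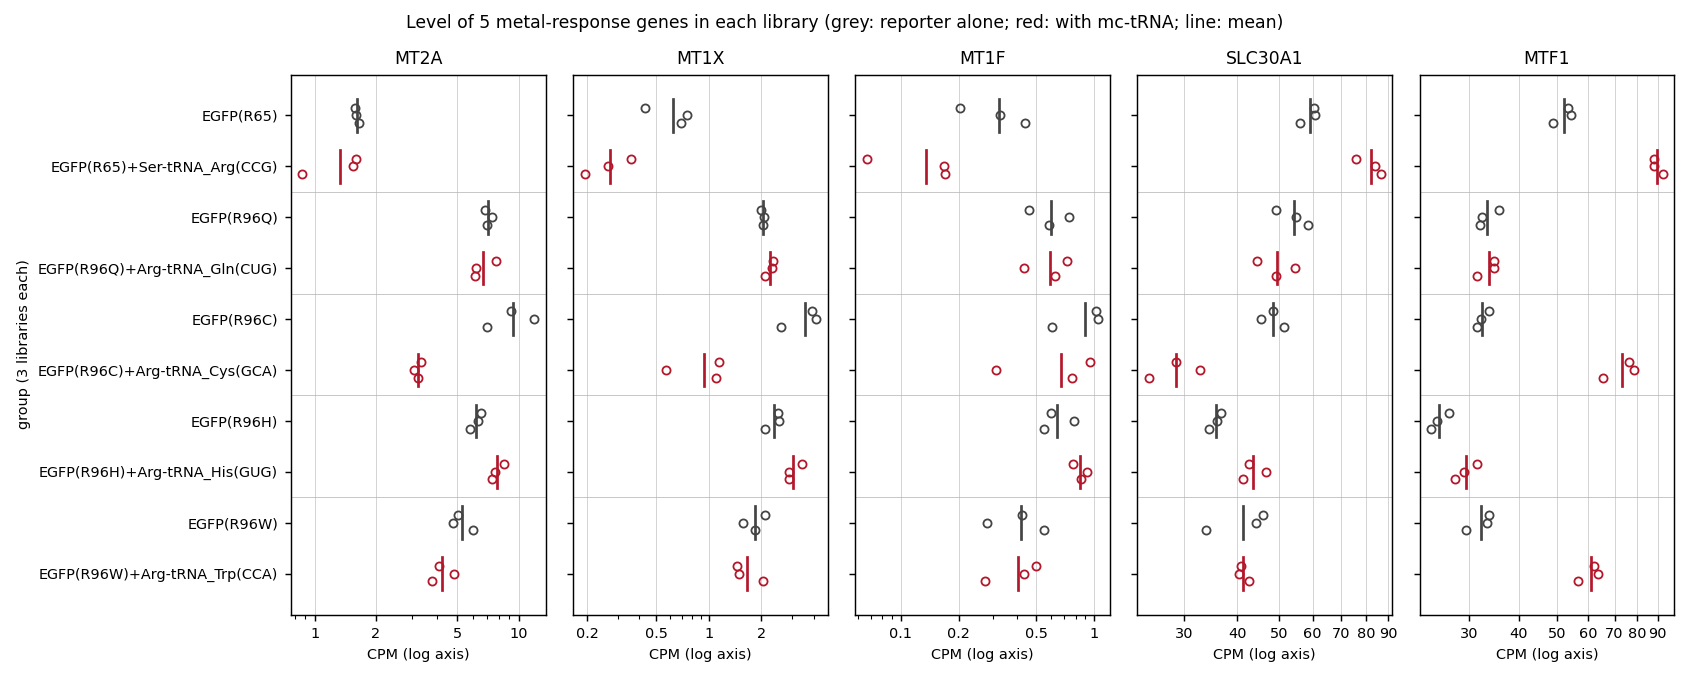
Level of the 5 tested genes in each of the 30 libraries, in CPM on a log axis, with the 10 groups down the side; grey circles are reporters alone, red circles the same reporter with its mc-tRNA, and lines are group means. MT2A and MT1X shift left and MTF1 shifts right between EGFP(R96C) and EGFP(R96C)+Arg-tRNA_Cys(GCA), while the EGFP(R96Q) pair overlaps in 4 of the 5 genes, all but MT1X.

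The reporters themselves differed before any mc-tRNA was added. Among the 4 EGFP(R96) reporters alone, which differ in the codon at the same position of EGFP, 4 of the 5 tested genes differed by edgeR's quasi-likelihood F-test, where 54.7% of all 22321 tested genes did. MT2A had 9.35 ± 2.46 CPM in EGFP(R96C), 7.08 ± 0.30 in EGFP(R96Q), 6.21 ± 0.37 in EGFP(R96H) and 5.27 ± 0.64 in EGFP(R96W), with an adjusted p of 0.000129. SLC30A1 was highest in EGFP(R96Q), at 54.2 ± 4.8 CPM, and lowest in EGFP(R96H), at 35.6 ± 1.1 CPM (adjusted p = 1.54e-05). MTF1 lay between 25.2 and 33.3 CPM (adjusted p = 5.69e-05) and MT1X between 1.84 and 3.55 CPM (adjusted p = 0.000455). MT1F missed the threshold with an adjusted p of 0.0501. The mc-tRNA comparisons below each set a reporter with its mc-tRNA against the same reporter alone.

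With Arg-tRNA_Cys(GCA), the metallothioneins MT2A and MT1X and the zinc exporter SLC30A1 fell, while MTF1 rose. MT2A stood at 9.14, 11.9 and 7 CPM in the 3 EGFP(R96C) libraries and at 3.34, 3.07 and 3.22 CPM in the 3 with the mc-tRNA. Every library with the mc-tRNA lay below every library without it, and the reporter libraries were far more spread than the others. The change was -1.54 on the log2 scale (SE 0.16), or 2.9-fold lower, with an adjusted p of 1.91e-10 by edgeR's quasi-likelihood test. Because RNA was measured in bulk from sorted cells, fewer cells with the transcript and less of it per cell cannot be told apart.

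MT1X read 3.9, 4.13 and 2.6 CPM in EGFP(R96C) and 1.15, 0.564 and 1.1 CPM with Arg-tRNA_Cys(GCA). The groups did not overlap, and MT1X fell by 1.92 on the log2 scale (SE 0.22, adjusted p = 2.31e-09), 3.79-fold. These MT1X values rest on only 20 to 36 counts in each mc-tRNA library. MT1F, at 1.02, 1.05 and 0.604 CPM against 0.945, 0.31 and 0.766 CPM, overlapped between the groups and did not pass the test (-0.41, SE 0.34, adjusted p = 0.306). Summed over the 9 genes, metallothionein CPM went from 13.8 ± 3.5 to 4.82 ± 0.78, a ratio of 0.35.

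SLC30A1, the zinc exporter, read 48.5, 45.5 and 51.5 CPM in EGFP(R96C) and 28.7, 32.6 and 24.8 CPM with Arg-tRNA_Cys(GCA). All 3 libraries with the mc-tRNA were the lowest of the pair, and SLC30A1 fell by 0.75 on the log2 scale (SE 0.10, adjusted p = 3.52e-08). MTF1, whose product acts on the other genes, moved the opposite way. It read 33.7, 32.1 and 31.3 CPM without and 76.1, 78.4 and 65.4 CPM with the mc-tRNA, without overlap, and rose 2.27-fold (log2 change 1.18, SE 0.07, adjusted p = 1.81e-16).

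In all, 4 of the 5 tested members were called with Arg-tRNA_Cys(GCA), 3 lower and 1 higher, in a comparison where 60.7% of all tested genes were called (30.2% higher and 30.5% lower), so the count itself is not a result about these genes. Their sizes can be placed among all genes: 3.71% of tested genes had a lower log2 change than MT1X, 6.49% than MT2A and 20.3% than SLC30A1, and 89.8% had a lower one than MTF1. The median log2 change of the 5 members was -0.75 against -0.04 over all tested genes. Scaling matters here, because scaling by library totals in place of TMM moves the median of all genes to -0.59 and the share of called genes that are higher from 49.8% to 20.2%. Under library totals MT2A changed by -2.08, MT1X by -2.46 and SLC30A1 by -1.30, MTF1 still rose by 0.63, and MT1F was called lower (-0.95, adjusted p = 0.013). Of 5 tested markers of other cell types, 2 rose and 1 fell. The marker sum moved mainly with COL1A1, a fibrillar collagen gene, at 18 ± 0.8 CPM without and 47.1 ± 0.6 CPM with the mc-tRNA, and LUM, a matrix proteoglycan gene, rose from 0.269 ± 0.142 to 3.27 ± 0.34 CPM. CD3E and HBB, markers of T cells and red cells, had 0 counts in both groups, and the part of other cells in the result was not tested.

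With Ser-tRNA_Arg(CCG), the 2 low metallothioneins fell while both SLC30A1 and MTF1 rose. MT1X read 0.428, 0.75 and 0.689 CPM in EGFP(R65) and 0.356, 0.264 and 0.194 CPM with the mc-tRNA, so the highest mc-tRNA library came close to the lowest reporter library without reaching it. It fell by 1.17 on the log2 scale (SE 0.32, adjusted p = 0.00191), on 8 to 30 counts per library. MT1F, at 0.203, 0.325 and 0.436 CPM against 0.0668, 0.168 and 0.169 CPM, fell by 1.25 (SE 0.48, adjusted p = 0.024). The MT1F call rests on 3 to 19 counts per library and was lost without EGFP(R65) replicate 3 or without the first mc-tRNA library (adjusted p = 0.135 each). MT2A did not pass, since 2 of the 3 mc-tRNA libraries lay with the reporter libraries: it read 1.58, 1.6 and 1.65 CPM without and 1.6, 1.54 and 0.871 CPM with the mc-tRNA (-0.26, SE 0.20, adjusted p = 0.276).

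SLC30A1 read 60.6, 60.8 and 56 CPM in EGFP(R65) and 75.9, 83.8 and 86.5 CPM with Ser-tRNA_Arg(CCG). It rose 1.39-fold without overlap (log2 change 0.47, SE 0.09, adjusted p = 5.54e-05), the only one of the 5 comparisons in which SLC30A1 was called higher. The Ser effect on SLC30A1 was not told apart from the His effect by edgeR's quasi-likelihood test (Ser minus His 0.18, SE 0.13, adjusted p = 0.281). MTF1 read 53.4, 54.2 and 48.9 CPM against 88.2, 88.4 and 92.8 CPM, and rose 1.72-fold (log2 change 0.78, SE 0.07, adjusted p = 1.22e-11). Thus 4 of 5 members were called, 2 in each direction, where 57.3% of all tested genes were (26.6% higher and 30.7% lower). The median of the 5 members was -0.26 against -0.02 over all genes, and the metallothionein sum went from 2.56 ± 0.31 to 1.78 ± 0.41 CPM. Cell type markers moved in the same comparison. Of 7 HEK293 markers, 5 rose and 2 fell, and of 5 tested markers of other cell types, PECAM1, an endothelial adhesion gene, rose from 0.159 ± 0.082 to 1.7 ± 0.24 CPM (log2 change 3.41, adjusted p = 2.78e-08) while LUM fell from 0.301 ± 0.103 to 0.0384 ± 0.0345 CPM (-2.87, adjusted p = 7.2e-05). The sum over all 13 other-cell markers was 25.8 to 27.7 CPM without and 26.3 to 28.6 CPM with the mc-tRNA, and the part of other cells in the result was not tested.

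With Arg-tRNA_Trp(CCA), MTF1 was the 1 member called, in a comparison that called 42.5% of all tested genes, with 20.7% of all tested genes higher. MTF1 read 33.6, 33.2 and 29.5 CPM in EGFP(R96W) and 62.3, 63.6 and 56.7 CPM with the mc-tRNA. The groups were well apart, and MTF1 rose 1.9-fold (log2 change 0.92, SE 0.07, adjusted p = 1.02e-12), and 93.7% of tested genes had a lower log2 change. MT2A read 5.05, 4.76 and 5.99 CPM without and 4.06, 4.84 and 3.78 CPM with it, with overlap (-0.31, SE 0.16, adjusted p = 0.104), and passed only when libraries were scaled by their totals (-0.44, adjusted p = 0.0166). MT1X (-0.14, SE 0.21), MT1F (-0.05, SE 0.38) and SLC30A1 (-0.0035, SE 0.095) overlapped between the groups and were not called. SLC30A1 stood at 41.3 ± 6.6 CPM without and 41.2 ± 1.1 CPM with the mc-tRNA. The median of the members was -0.05 and that of all genes -0.03. Scaling by library totals moved the median of all genes to -0.16 and the share of called genes that are higher from 48.8% to 31.4%.

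With Arg-tRNA_Gln(CUG), 0 of the 5 members were called by edgeR, 0 had an unadjusted p under 0.05 and 0 were called by DESeq2, and only 0.551% of all tested genes were called. Of these calls 49.6% were higher, and 38.3% under library totals. MT2A stood at 7.08 ± 0.30 CPM without and 6.67 ± 0.90 CPM with the mc-tRNA. SLC30A1 stood at 54.2 ± 4.8 and 49.4 ± 5.1 CPM (-0.13, SE 0.09, adjusted p = 0.699), and MTF1 at 33.3 ± 2.0 and 33.6 ± 1.9 CPM. MT1X was the 1 member whose groups did not overlap, at 1.98, 2.08 and 2.04 CPM against 2.34, 2.31 and 2.1 CPM, as was the case, with the mc-tRNA higher, for 8.33% of all tested genes. Its change of 0.14 (SE 0.20, adjusted p = 0.886) is smaller than its error.

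With Arg-tRNA_His(GUG), 0 of the 5 members were called by edgeR and 0 by DESeq2, where 2.52% of all tested genes were called by edgeR, but 3 had an unadjusted p under 0.05 and all 5 estimates were above 0. Of the calls over all genes 61.8% were higher, and 48.4% under library totals. SLC30A1 read 36.5, 35.9 and 34.3 CPM in EGFP(R96H) and 42.5, 46.7 and 41.2 CPM with the mc-tRNA (0.29, SE 0.09, adjusted p = 0.0996). MTF1 read 26.6, 24.9 and 24 CPM against 31.3, 29 and 27.6 CPM (0.22, SE 0.07, adjusted p = 0.102). MT2A read 6.52, 6.31 and 5.79 CPM against 8.5, 7.69 and 7.42 CPM (0.34, SE 0.15, adjusted p = 0.225). In each of these 3 genes every mc-tRNA library lay above every reporter library, as was also so for MT1X (0.36, SE 0.19, adjusted p = 0.35). Thus 4 of 5 members did not overlap and lay higher, where 14% of all tested genes did. MT1F overlapped (0.40, SE 0.32, adjusted p = 0.577). Fitted on the 6 libraries of this pair alone, MT2A (adjusted p = 0.029), MTF1 (adjusted p = 0.0317) and SLC30A1 (adjusted p = 0.00384) passed. The 2.52% above belongs to the fit of all libraries and is not the share of genes called in this smaller fit. The median of the 5 members was 0.34 against -0.0024 over all genes, and the metallothionein sum went from 9.26 ± 0.66 to 11.8 ± 0.8 CPM.

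**Figure D3:**
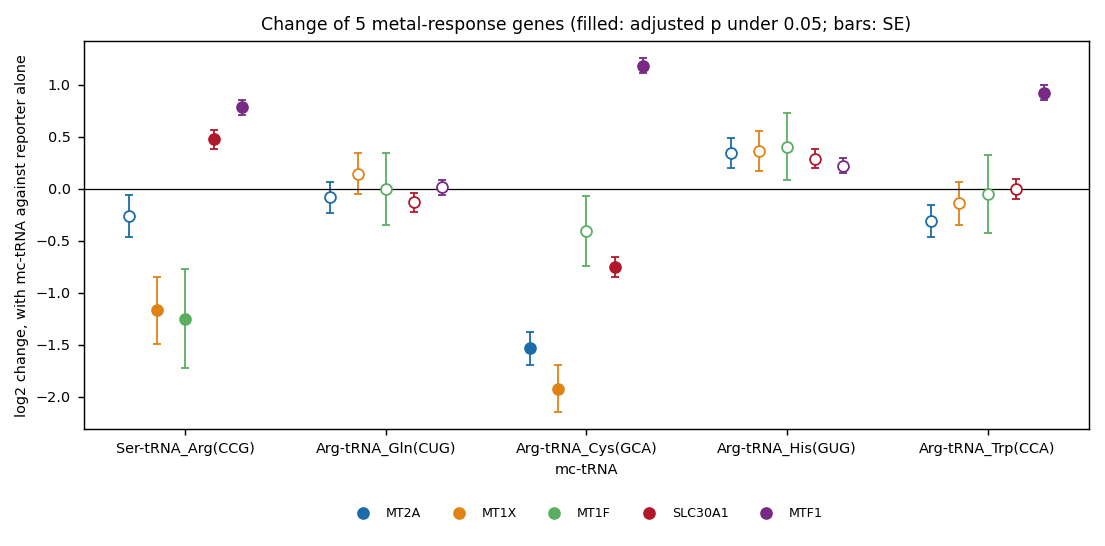
Log2 change of the 5 tested genes with each mc-tRNA against the same reporter alone; bars are standard errors, filled circles have an adjusted p under 0.05 and open circles do not. MTF1 is above 0 with a filled circle for the Ser, Cys and Trp mc-tRNAs, MT2A and MT1X are lowest for Cys, and SLC30A1 is filled above 0 for Ser (0.47) and below 0 for Cys (-0.75).

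Whether the 5 effects differed was tested directly. By an F-test across the effects, 4 of 5 members differed, where 72.5% of all tested genes did: MTF1 (adjusted p = 2.72e-12), SLC30A1 (adjusted p = 1.31e-08), MT2A (adjusted p = 4.98e-08) and MT1X (adjusted p = 8.36e-08), but not MT1F (adjusted p = 0.101). Among the 10 pairs of effects, each tested over all genes, 8 differed for MTF1, 6 each for MT1X, MT2A and SLC30A1, and 1 for MT1F. Over all tested genes, the share that differed was 44.6% for Ser against Gln, 56.5% for Ser against Cys, 41.7% for Ser against His, 45.3% for Ser against Trp and 50.2% for Gln against Cys. It was 0.811% for Gln against His, 25.3% for Gln against Trp, 48.2% for Cys against His, 43.7% for Cys against Trp and 22.8% for His against Trp. SLC30A1 was called in opposite directions with Ser and Cys: its Ser effect exceeded its Cys effect by 1.23 on the log2 scale (SE 0.13, adjusted p = 1.92e-09). The Cys effect on SLC30A1 was also lower than the Trp effect by -0.75 (SE 0.14, adjusted p = 2.49e-05).

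For MT2A the Cys effect was lower than each of the other 4. The difference from Trp was -1.22 (SE 0.22, adjusted p = 2.4e-05), and that between Ser and Cys was 1.28 (SE 0.26, adjusted p = 7.04e-05). MT1X did not separate Ser from Cys, with a difference of 0.75 (SE 0.41, adjusted p = 0.114), though it did under library totals (1.25, adjusted p = 0.00897). The rise of MTF1 with Cys differed from that with Ser (Ser minus Cys -0.40, SE 0.10, adjusted p = 0.00103) and from that with Trp (Cys minus Trp 0.26, SE 0.10, adjusted p = 0.0385), but the order depended on the scaling. Under library totals both differences of MTF1 turned in sign and neither passed (Ser minus Cys 0.11, adjusted p = 0.326, and Cys minus Trp -0.16, adjusted p = 0.181), with rises of 0.75, 0.63 and 0.79 for Ser, Cys and Trp. Under RLE factors the MTF1 difference between Cys and Trp was 0.23 and missed the threshold (adjusted p = 0.0642). Of the 27 differences called among the members, 25 kept call and direction under library totals, and these 2 turned. Under RLE factors 25 were called too, the other lost call being MT2A between Ser and His (adjusted p = 0.0499 by TMM and 0.062 by RLE). Between Ser and Trp, MTF1 differed by -0.14 (SE 0.10, adjusted p = 0.27), which the test could not tell from 0. MTF1 was called higher with 3 mc-tRNAs, while MT2A was called lower with 1 of those and MT1X with 2.

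The other zinc transporters were read from lists of 9 further SLC30 exporters and 14 SLC39 importers, of which 9 and 13 were tested. The counts of called genes in this list and in those that follow stand beside 60.7% of all tested genes called with Cys, 57.3% with Ser and 42.5% with Trp, so no count is read as particular to its list. With Arg-tRNA_Cys(GCA), 6 exporters rose and 1 fell, and with Ser-tRNA_Arg(CCG) 4 rose and 3 fell. With Arg-tRNA_Trp(CCA) 2 rose and 1 fell. The Gln and His mc-tRNAs gave 0 calls among exporters by edgeR, with 0 and 1 genes at an unadjusted p under 0.05. Under library totals the Cys counts became 3 higher and 1 lower. SLC30A5 and SLC30A7, which load zinc into the secretory pathway, rose with the Ser, Cys and Trp mc-tRNAs, whereas the plasma membrane exporter SLC30A1 rose with Ser, fell with Cys and was not called with Trp. SLC30A7 went from 44.9 ± 0.5 to 123 ± 18 CPM with Cys (log2 change 1.46, SE 0.09, adjusted p = 5.09e-15), by 0.96 with Ser and by 0.90 with Trp, and SLC30A5 by 1.07, 0.70 and 0.59. The largest called exporter rise with Cys was that of SLC30A10, a manganese exporter of this family, from 1.82 ± 0.02 to 7.4 ± 0.29 CPM (log2 change 2.02, SE 0.16, adjusted p = 3.77e-13). These 3 genes stayed above 0 and called with Cys under library totals, at 0.91, 0.53 and 1.47 for SLC30A7, SLC30A5 and SLC30A10.

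Among the SLC39 importers, 8 rose and 3 fell with Arg-tRNA_Cys(GCA), 5 rose and 4 fell with Ser-tRNA_Arg(CCG), and 6 rose and 4 fell with Arg-tRNA_Trp(CCA). Under library totals the Cys split turned to 5 higher and 7 lower. With the Gln and His mc-tRNAs 0 were called by edgeR, with 0 and 2 at an unadjusted p under 0.05. SLC39A7, which releases zinc from the endoplasmic reticulum, went from 150 ± 8 to 386 ± 3 CPM with Cys (log2 change 1.36, SE 0.06, adjusted p = 3.2e-20) and rose by 0.89 with Trp and 0.29 with Ser. SLC39A9 rose by 1.26 with Cys, 0.73 with Trp and 0.55 with Ser. SLC39A10, a plasma membrane importer, fell with all 3 (-0.53, -0.53 and -0.74), and the largest called fall with Cys was that of SLC39A4 (-0.97, SE 0.14, adjusted p = 2.17e-07). SLC39A12, with 6 counts in the 3 Cys mc-tRNA libraries, had a lower estimate with Cys that did not pass (-1.79, adjusted p = 0.0669) except under library totals (-2.31, adjusted p = 0.0147). It was called lower with Trp (-2.97, adjusted p = 0.012) and higher with Ser (1.74, adjusted p = 0.0211).

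**Figure D4:**
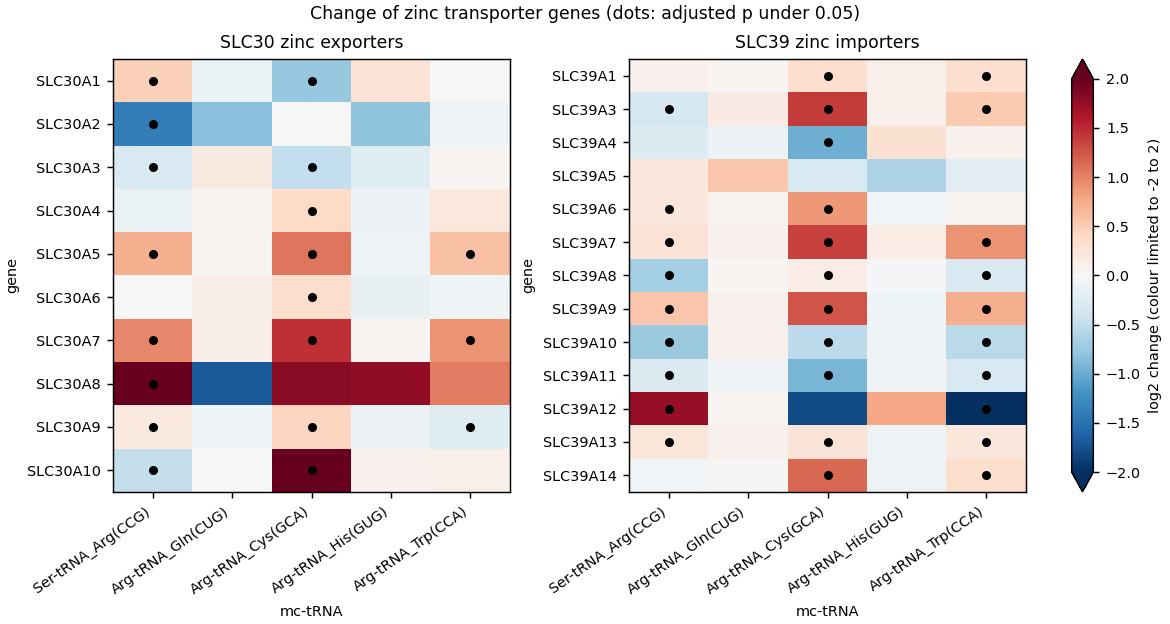
Log2 change of SLC30 exporters (left, SLC30A1 at the top) and SLC39 importers (right) with each mc-tRNA against its reporter alone, coloured from -2 to 2, with larger values given the end colours and black dots for an adjusted p under 0.05. Dots are in the Ser, Cys and Trp columns, where some genes have none, and are absent from the Gln and His columns, and SLC30A5 and SLC30A7 are red with dots in all 3 where SLC30A1 is red, blue and white.

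In a list of 18 copper and iron genes, of which 17 were tested, 9 rose and 7 fell with Cys, 4 rose and 9 fell with Ser, and 5 rose and 4 fell with Trp, and under library totals the counts were 4 higher and 10 lower with Cys, 4 and 11 with Ser, and 3 and 8 with Trp. HMOX1, the heme-degrading enzyme that oxidants and cadmium also induce, was called in 4 comparisons, higher in 2 and lower in 2. HMOX1 went from 34.6 ± 5.1 to 325 ± 19 CPM with Cys (log2 change 3.23, adjusted p = 6.25e-14) and from 28.9 ± 6.7 to 49.2 ± 8.4 CPM with Gln (0.77, adjusted p = 0.022). It fell by 0.91 with Ser and by 0.57 with Trp. MT2A, called with Cys only, had the other sign there and with Gln, and the same sign as HMOX1 with Ser and Trp. With Gln it was the only gene of that list called, and with His 0 were called, with 4 at an unadjusted p under 0.05 in each.

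Lists of other stress and hormone response genes were read beside the metallothioneins. All 10 heat shock reference genes rose with Cys (median log2 change 5.68) and with Trp (2.18), under library totals as well. With Ser, 3 rose and 4 fell, and HSP70 genes were called in both directions. HSPA1A (-1.48, adjusted p = 2.78e-07) and HSPA1B (-1.51, adjusted p = 2e-07) fell with Ser. HSPA6, also an HSP70 gene, rose with it (2.37 under library totals, adjusted p = 5.22e-09). With His 7 of the list rose, and with Gln 3. DNAJB1, an HSP40 co-chaperone, was called higher with all 5 mc-tRNAs, by 7.27 with Cys, 2.20 with Trp, 0.52 with Ser, 0.36 with His and 0.32 with Gln. Of 8 glucocorticoid-responsive genes, 3 rose and 2 fell with Cys, 3 rose and 1 fell with Ser, and 3 rose and 2 fell with Trp, with DUSP1, a MAP kinase phosphatase, at 3.78 with Cys. Under library totals the Cys counts in that list were 2 higher and 5 lower. In the same list 2 rose with His (1 under library totals) and 0 were called with Gln. Over all tested genes 2.52% were called with His and 0.551% with Gln.

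Genes beside the metallothionein cluster on chromosome 16 were called in both directions, as was the whole table of tested genes, of which 30.2% were higher and 30.5% lower with Cys and 26.6% and 30.7% with Ser. Of 8 tested neighbours, 5 rose and 2 fell with Cys, 4 rose and 3 fell with Ser, 4 rose and 2 fell with Trp, 1 rose with His and 0 were called with Gln, where 0 had an unadjusted p under 0.05. Under library totals the Cys counts were 2 higher and 4 lower. HERPUD1, an endoplasmic reticulum stress gene on the MT1X side of the cluster, went from 72 ± 3.1 to 950 ± 15 CPM with Cys (log2 change 3.72, adjusted p = 5.3e-29) and rose by 2.11 with Trp and 1.56 with Ser. BBS2, a ciliary gene on the MT2A side, fell with the same 3 mc-tRNAs, by 0.57, 0.97 and 0.83.

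Likeness between genes was described by Pearson's r over the 15 mc-tRNA libraries, each taken as its difference from the mean of its own reporter's 3 libraries. Libraries of 1 mc-tRNA share that mean and their treatment, so these values are descriptions. MT1X followed MT2A most closely among the members (r = 0.87), and MT2A ran with SLC30A1 (0.72) and against MTF1 (-0.73). MTF1 and SLC30A1 gave -0.37. Of 15015 other genes with a mean of at least 1 CPM, those most like MT2A were CSPG5 (r = 0.96), HMGB3 (0.96) and SRSF2 (0.958), and those most like MT1X were NRGN (0.966), C15orf39 (0.961) and DLX1 (0.957). For SLC30A1 they were TBX3 (0.965), DDB2 (0.952) and NUP37 (0.948), and for MTF1 SPTY2D1 (0.978), SDE2 (0.977) and GTF2F1 (0.977). TBX3, a T-box repressor, had a log2 change of 0.28 with Ser and -0.88 with Cys. Its signs are those of SLC30A1, which largely follows from its choice by r over these same libraries.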

How the data were processed

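PolyA-selected RNA from mCherry-sorted HEK293 cells was sequenced as strand-specific TruSeq libraries on a NovaSEQ6000, per the labels' protocols. The deposited files hold counts, whole numbers per Ensembl gene that the authors made with STAR, SAMtools and featureCounts on hg38, per the submitters' processing notes, from uniquely mapped paired-end reads, per the file headers. The strand setting and the read length are not stated in any label, note or header used. Symbols came from a table of gene names, with 8 of 8 members matched, and positions from GENCODE 29. The 92 ERCC rows were left out.

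The 30 libraries were fitted together with edgeR 4.0.16 (R 4.3.3, limma 3.58.1), with 1 mean per group, TMM scaling and robust quasi-likelihood tests with 20 residual degrees of freedom. Genes were kept by filterByExpr at its default minimum count of 10, which left 22321. P-values were adjusted over all of them by Benjamini-Hochberg, and a gene was called under 0.05. The biological coefficient of variation was 8.24%. CPM are counts divided by the TMM-scaled library total, and CPM per kb divide these by GENCODE exon length. For likeness, log2 CPM had a prior count of 2. Floors of 3 counts cover counting error only. Motif and codon counts were made with Python 3.11.15 and pandas 2.3.3 from RefSeq promoter windows (GRCh38.p14) and GENCODE 29. The RefSeq starts do not coincide with the ends of the GENCODE models.

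The labels call replicates independent without naming their source, so p-values measure the spread between these samples. No pair of replicates agreed within sampling noise (chi-square per degree of freedom 2.08 to 36.7). The fit was tested on simulated counts for the Cys comparison over 21274 genes, where it recovered 58% of 1.5-fold and 89.8% of 4-fold changes. Only a small part of the genes was changed there, up and down alike, whereas 60.7% were called in the real comparison. The simulation therefore cannot test the choice of scaling, and its recovery may not hold under such broad change. The alternatives were RLE factors, library totals, DESeq2 1.42.0, no filter, a filter of CPM of at least 1 in 3 libraries, a replicate block, fits without the EGFP(R65) libraries or on 1 pair alone, and leaving out each library. A check of gene lists and of differences between effects under each scaling was added after seeing the data. The 8 members and all lists were chosen with earlier results of these data known. Named genes were the members and the 3 most alike genes for each of 4 members. From each list came the called gene with the largest change in a comparison and direction, or genes called in the most comparisons. SLC39A12, HSPA1A, CD3E and HBB were named outside this rule.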

Additional observations from a re-analysis of the deposited data

Results flagged for a closer look

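For 4 members the effects of the 5 mc-tRNAs differed from each other by edgeR's quasi-likelihood F-test over 22321 genes, of which 72.5% also differed. The adjusted p was 2.72e-12 for MTF1, 1.31e-08 for SLC30A1, 4.98e-08 for MT2A and 8.36e-08 for MT1X. The log2 change of SLC30A1 ran from -0.75 with Arg-tRNA_Cys(GCA) to 0.47 with Ser-tRNA_Arg(CCG), both called, and that of MT2A from -1.54 to 0.34, of which the second was not called.

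Rows outside the tests also held counts. The metallothionein pseudogene MT1P1 reached 11 counts in 1 library of EGFP(R96Q)+Arg-tRNA_Gln(CUG), and MT4, a metallothionein known from stratified epithelium, reached 9 counts in 1 library of EGFP(R65)+Ser-tRNA_Arg(CCG), above the 3 counts taken as the floor. MT1P1 shares 50-base windows with MT1X, MT2A and MT1G. ERCC spike-in rows held more than 3 counts in 24 libraries, all of them with EGFP(R96) reporters, and 0 in the 6 EGFP(R65) libraries.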

How the results depend on the processing

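Of the 9 member changes called in the 5 comparisons, 0 reversed and 2 lost their call over 120 alternative values, both of them MT1F with Ser-tRNA_Arg(CCG), at -0.96 without EGFP(R65) replicate 3 and -0.92 without EGFP(R65)+Ser-tRNA_Arg(CCG) replicate 1. MT1F failed the stricter filter. Among the changes not called, 7 of 219 alternative values were called and 21 had the other sign, with at most 0.19 and an adjusted p of at least 0.585. Those with the other sign were as follows. MT1F with Gln gave 0.00080 (RLE factors), 0.00037 (DESeq2), 0.18 without EGFP(R96Q) replicate 2 and 0.18 without the second mc-tRNA library, in a range of -0.17 to 0.18 with 1 library left out. SLC30A1 with Trp gave 0.0036 (RLE factors), 0.0051 (no filter), 0.0089 (stricter filter), 0.017 (without the EGFP(R65) libraries), 0.0039 (DESeq2) and 0.0035, 0.011, 0.050 and 0.078 with 1 library left out (range -0.13 to 0.078). MTF1 with Gln gave -0.0077 (library totals) and -0.0066, -0.0087, -0.011 and -0.015 with 1 left out (range -0.015 to 0.064). MT1F with Trp gave 0.17 and 0.19 with 1 left out (range -0.27 to 0.19).

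The number of called members moved by more than 1.5 times in 4 cases. With Arg-tRNA_Trp(CCA) it was 2 under library totals, which shift the median of all genes to -0.16. With Arg-tRNA_His(GUG) it was 1 with no filter (SLC30A1, adjusted p = 0.0251), 1 with the replicate block and 3 in the fit of the 6 libraries alone. The share of all genes called in these fits is not set beside these counts, and the cause was not tested. The metallothionein sum with Cys had a log2 ratio of -1.52, and of -2.06 under library totals. With 1 library left out, called members numbered 4 to 4 for Cys, 3 to 4 for Ser, 1 to 1 for Trp, 0 to 0 for Gln and for His, 4 to 4 for the differences among effects and 4 to 5 for the reporters alone.

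Replicate numbers are shared across groups, and same-numbered libraries correlated by -0.077 to 0.14, in no comparison over 0.1 for every pair. With Trp every library was still most like the one of its own number (r = 0.053, 0.055 and 0.13). With Ser, Gln and His some were, and with Cys no library was. Whether the numbers mark a shared origin was not tested, and the main fit did not use them as pairing. With the replicate block, MTF1 was called with His (0.22, adjusted p = 0.0308), SLC30A1 with Trp was 0.0081, and the other member calls were as without the block. Depth limits MT1F and MT1X in the EGFP(R65) pair, with 3 to 30 counts per library.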
